A study of Homo sapiens with 10 samples.

Results

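Small nucleolar RNA (snoRNA) host genes were taken as the genes of GENCODE release 44 on GRCh37 (hg19) that are named SNHG and a number, together with GAS5, DANCR, ZFAS1 and EPB41L4A-AS1. The rule gave 32 genes, 28 by the SNHG name and 4 by their own names, of 63827 genes on the autosomes and chromosome X. All 32 are annotated as long non-coding RNA (lncRNA) genes, of which the annotation holds 18592. They lie on 15 chromosomes, and the closest pair of starts, those of SNHG11 and SNHG17, is 10934 bp apart. RefSeq, by the nesting of its genes, places at least 1 snoRNA or small Cajal body RNA (scaRNA) inside 31 of the 32 members. It places 1 in 17 members and 2 or more in 14. The exception is SNHG27, in which GENCODE has 1.

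The data are chromatin immunoprecipitation sequencing (ChIP-seq) peak lists of ZMYND8, a chromatin reader with a PHD finger, a bromodomain and a PWWP domain, in HEK293, a human embryonic kidney cell line. The ZMYND8 ChIP had 2 replicates and used an antibody to the protein itself. Its labels describe Flp-In T-REx HEK293 cells that stably carried 3xFLAG-ZMYND8 or its N228F bromodomain mutant, without saying which was used. The FLAG-ZMYND8 ChIP, also in 2 replicates, used anti-FLAG in such cells after full-length 3xFLAG-ZMYND8 had been induced with 10 nM doxycycline, so that the tagged protein was overexpressed. The labels do not say whether a line was 1 clone. Each target has 1 deposited peak list that names no replicate, with 15086 peaks for ZMYND8 and 63690 for FLAG-ZMYND8, which leaves no replicate spread to report. The lists hold called sites only, and a gene without a peak is not thereby a gene without ZMYND8.

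A snoRNA guides the chemical modification of another RNA, mostly ribosomal RNA. Box C/D snoRNAs direct ribose methylation by fibrillarin, box H/ACA snoRNAs direct pseudouridylation by dyskerin, and scaRNAs act on spliceosomal RNAs in Cajal bodies. Most human snoRNAs are cut from introns that are spliced out of a host transcript. The spliced exons of several hosts are degraded by nonsense-mediated decay, and some hosts begin with a terminal oligopyrimidine tract, the start that ribosomal protein genes share.

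The question put to the lists was where called ZMYND8 sites lie at these starts. A start is the 5′ end of the gene unless the canonical transcript is named, a peak is placed by its midpoint, and peaks of both lists overlap when they share at least 1 bp. In 12 members the canonical transcript begins at the 5′ end of the gene, and in 9 it begins over 100 bp further on, by 893 bp in GAS5, 807 bp in SNHG6 and 464 bp in ZFAS1. SNHG14 has the longest such distance, 214730 bp.

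The starts themselves are shown first because a pyrimidine start is known from several host genes. Each line gives 30 bases of GRCh37 along the gene's strand around the canonical transcript start. The first 10 bases lie upstream, and capitals mark the unbroken run of pyrimidines that begins at the annotated first base.
GAS5: accatactgtCTTTTCgaggtaggagtcga
SNHG29: aaggtgtgacCTTTTCattcccgttgttat
ZFAS1: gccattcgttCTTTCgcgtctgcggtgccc
SNHG25: gctggtctgcTCCTTTaaaagaacgccatc
SNHG7: ccttctcgtcCTCTgcgtgcgccggaggct
SNHG8: gcgcttccccCggaatagcgtcatcagttc
SNHG1: gggcctctgcggcatggtatttaatcgtct
DANCR: gcaggtcgcaggcctctttgtcagctggag
SNHG16: cgttcttttcgaggtcggccgcgtggctgg
A first base C followed by at least 4 more pyrimidines was found in 4 of the 32 members (12.5%), GAS5, SNHG29 and ZFAS1 among them, against 2.79% of all lncRNA genes and 4.60% of protein-coding genes. SNHG25 has a run of 6 pyrimidines that begins with T, and that of SNHG7 stops after 4. SNHG1, DANCR and SNHG16 show no pyrimidine at the annotated first base, which says nothing of other start sites that these genes may use. Of the members shown with the full run, ZFAS1 had peaks of both lists within 1 kb, and GAS5 and SNHG29 had FLAG-ZMYND8 peaks alone.

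The second set of sequences is from ZMYND8 peaks of at most 300 bp within 1 kb of a start, which lets the bound stretch be read whole. The lines give GRCh37 sequence along the gene's strand, with CpG dinucleotides in capitals. DANCR, SNHG8, SNHG10, SNHG15 and SNHG28 have no protein-coding start within 1 kb of the gene start, and SNHG19 is shown because its peak lies over a snoRNA.
DANCR, chr4:53578699-53578970: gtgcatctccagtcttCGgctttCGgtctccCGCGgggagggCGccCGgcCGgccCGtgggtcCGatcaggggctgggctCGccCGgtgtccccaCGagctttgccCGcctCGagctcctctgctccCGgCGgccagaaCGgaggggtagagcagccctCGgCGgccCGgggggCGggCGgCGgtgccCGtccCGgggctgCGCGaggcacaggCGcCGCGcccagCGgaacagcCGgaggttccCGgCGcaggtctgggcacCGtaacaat
SNHG8, chr4:119199998-119200264: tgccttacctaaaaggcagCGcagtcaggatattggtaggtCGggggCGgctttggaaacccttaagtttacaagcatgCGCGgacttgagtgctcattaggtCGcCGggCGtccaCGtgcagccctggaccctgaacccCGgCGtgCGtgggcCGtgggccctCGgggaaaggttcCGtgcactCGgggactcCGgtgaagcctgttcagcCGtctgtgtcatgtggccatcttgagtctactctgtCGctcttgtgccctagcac
SNHG10, chr14:96000695-96000845: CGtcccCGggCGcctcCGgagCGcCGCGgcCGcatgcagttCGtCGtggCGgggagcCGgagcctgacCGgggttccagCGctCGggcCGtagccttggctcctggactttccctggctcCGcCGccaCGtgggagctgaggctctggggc
SNHG15, chr7:45026416-45026604: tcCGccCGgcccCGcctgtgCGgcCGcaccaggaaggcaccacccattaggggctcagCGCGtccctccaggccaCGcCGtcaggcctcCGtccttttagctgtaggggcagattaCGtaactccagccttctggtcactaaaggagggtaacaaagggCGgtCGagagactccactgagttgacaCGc
SNHG28, chr1:159824624-159824847: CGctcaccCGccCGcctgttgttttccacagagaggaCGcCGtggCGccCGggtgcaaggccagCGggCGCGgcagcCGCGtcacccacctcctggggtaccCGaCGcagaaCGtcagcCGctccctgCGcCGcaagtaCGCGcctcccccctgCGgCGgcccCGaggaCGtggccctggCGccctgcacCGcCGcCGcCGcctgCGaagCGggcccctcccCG
SNHG19, chr16:2205082-2205232: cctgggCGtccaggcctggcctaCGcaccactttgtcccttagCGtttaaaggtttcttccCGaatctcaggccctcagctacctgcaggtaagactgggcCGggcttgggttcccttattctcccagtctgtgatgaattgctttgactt
The DANCR peak holds 35 CpG sites in 272 bp at a GC content of 75.7%, and that of SNHG28 holds 32 in 224 bp at 77.2%. SNHG8 is lower with 19 in 267 bp at 60.7%, and SNHG19 has 5 in 151 bp at 55.0%. The E-box CACGTG and the NRF1 motif GCATGCG, searched on both strands, were both found in the peaks of SNHG8 and SNHG10. CCCGCCC, the motif of SP factors, was found in those of DANCR and SNHG28. These are matches of letters and not measured sites. The ZMYND8 peaks of SNHG12, SNHG25 and SNHG32 were also at most 300 bp wide and within 1 kb of the start, and are not shown. No searched motif was found in them or in the peaks of SNHG15 and SNHG19. Over all members, the 16 ZMYND8 peaks within 1 kb had a median GC content of 63.3%, with a range from 52.9 to 77.2%, and the 39 FLAG-ZMYND8 peaks a median of 60.6%, with a range from 51.5 to 78.4%.

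Peaks of both lists were frequent at the host gene starts. A ZMYND8 peak lay within 1 kb of the start in 16 of 32 members, a share of 50% (95% Wilson interval 33.6 to 66.4%), where 10.8% of all lncRNA genes had one. A FLAG-ZMYND8 peak lay there in 26 members, or 81.25% (64.7 to 91.1%), where 22% of lncRNA genes had one. Overlapping peaks of both lists were found in 12 members, or 37.5% (22.9 to 54.7%), against 6.49% of lncRNA genes. When the overlap had to cover at least 50% of both peaks, 5 members (15.6%) were left, against 2.66%. The intervals cover counting error over genes only, and no test was made of the difference between members and other genes. The member shares were also above those of protein-coding genes, of which 28.5% had a ZMYND8 peak, 49.3% a FLAG-ZMYND8 peak and 17.1% overlapping peaks within 1 kb.

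Within 3 kb the ZMYND8 count rose to 20 members (62.5%), with 15.2% of lncRNA genes as background. FLAG-ZMYND8 gained 1 member, to 27 (84.4%), with a background of 30.2%. The FLAG-ZMYND8 list is the longer one. When it was shortened to as many of its widest peaks as the ZMYND8 list has, 17 of 32 members (53.1%) had one within 1 kb, with 12.4% of lncRNA genes as background, and 20 (62.5%) within 3 kb, with 16.1%.

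No member had a ZMYND8 peak without a FLAG-ZMYND8 peak. Among the 16 members with a ZMYND8 peak within 1 kb, all 16 also had a FLAG-ZMYND8 peak there. Among lncRNA genes with a ZMYND8 peak the same held for 1547 of 2016 (76.7%), and among protein-coding genes for 79.5%. Both lists had peaks within 1 kb in 8.32% of lncRNA genes. The 32 members thus fell into 4 groups, which the map of peaks around the starts shows.

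**Figure D1:**
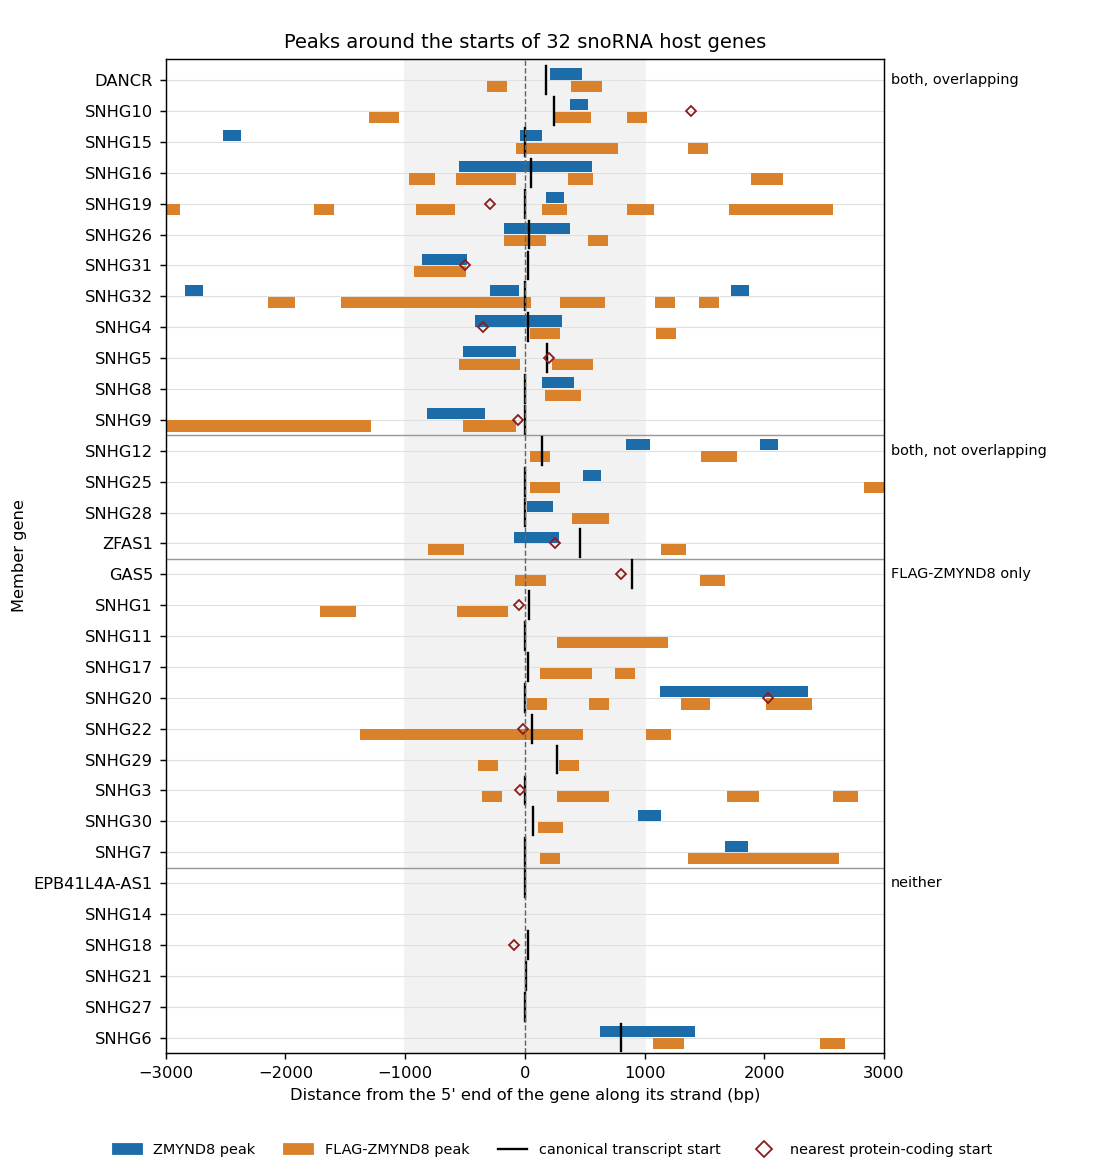
Peaks of both lists within 3000 bp of the 5′ end of each of the 32 members, drawn to scale along the gene's strand in bp. Blue bars are ZMYND8 peaks, orange bars FLAG-ZMYND8 peaks, black ticks the canonical transcript start and diamonds the nearest protein-coding start, the shaded band is 1 kb on either side, and the genes are grouped by their peaks within it. The 12 members at the top have overlapping peaks, and 5 of the 6 at the bottom have no peak in the whole window.

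The 12 members with overlapping peaks were DANCR, SNHG4, SNHG5, SNHG8, SNHG9, SNHG10, SNHG15, SNHG16, SNHG19, SNHG26, SNHG31 and SNHG32. In SNHG12, SNHG25, SNHG28 and ZFAS1 the peaks of the lists lay apart. A FLAG-ZMYND8 peak alone was found in GAS5, SNHG1, SNHG3, SNHG7, SNHG11, SNHG17, SNHG20, SNHG22, SNHG29 and SNHG30. No peak lay within 1 kb in EPB41L4A-AS1, SNHG6, SNHG14, SNHG18, SNHG21 and SNHG27. Widening the window to 3 kb gave overlapping peaks to SNHG6, SNHG7 and SNHG20 and a ZMYND8 peak apart from the FLAG-ZMYND8 peak to SNHG30, so that 7 members were left with FLAG-ZMYND8 alone and 5 with no peak. Overlapping peaks were then found in 15 members, with 8.78% of lncRNA genes as background.

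A second start near the first complicates any statement on which gene a peak belongs to. A protein-coding gene began within 1 kb of 11 members, on the opposite strand in 8 and on the same strand in 3. Opposite-strand neighbours were SLC3A2, the heavy chain of an amino acid transporter, 51 bp upstream of SNHG1, RPS2, a ribosomal protein gene, 54 bp upstream of SNHG9, and ACAA2, a mitochondrial thiolase, 12 bp upstream of SNHG22. SEMA5A lay 95 bp upstream of SNHG18, TRAF7 293 bp upstream of SNHG19 and BARD1, the partner of BRCA1, 498 bp upstream of SNHG31. The starts of ZNFX1 and ZBTB37 lay inside ZFAS1 and GAS5, 248 and 800 bp downstream of theirs. On the same strand were RCC1, the exchange factor of Ran, 37 bp upstream of SNHG3, MATR3, a nuclear matrix protein, 350 bp upstream of SNHG4, and the unnamed gene ENSG00000271793 at SNHG5. The set depends on the starts taken. By canonical starts, SNHG1 and SNHG5 had no such neighbour, the nearest being 16332 and 35770 bp away. SNHG10 then had GLRX5 408 bp upstream, and 22 members had none.

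Of these 11 members, 6 had a ZMYND8 and 10 a FLAG-ZMYND8 peak within 1 kb, where 39.8% and 68.1% of the 2656 lncRNA genes with such a neighbour had one. The member shares with such a neighbour were 54.5% (28.01 to 78.7%) and 90.9% (62.3 to 98.4%), and overlapping peaks were present in 5 members (45.5%), with a background of 25.5%. The 21 members with no protein-coding start within 1 kb had lower shares by count in this window of the gene start, and that difference was not tested. A ZMYND8 peak was present in 10 of them, or 47.6% (28.3 to 67.6%), against 6.02% of the 15936 lncRNA genes without such a neighbour. FLAG-ZMYND8 peaks were present in 16, or 76.2% (54.9 to 89.4%), against 14.3%. Overlapping peaks were present in 7 (33.3%), against 3.32%. Within 3 kb the order was reversed for ZMYND8, at 66.7% without such a neighbour (background 10.1%) and 54.5% with one (background 45.9%). For overlapping peaks the 3 kb shares were 47.6% (background 5.30%) and 45.5% (background 29.7%). FLAG-ZMYND8 kept the order, at 81.0% (background 22.7%) and 90.9% (background 75.5%).

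**Figure D2:**
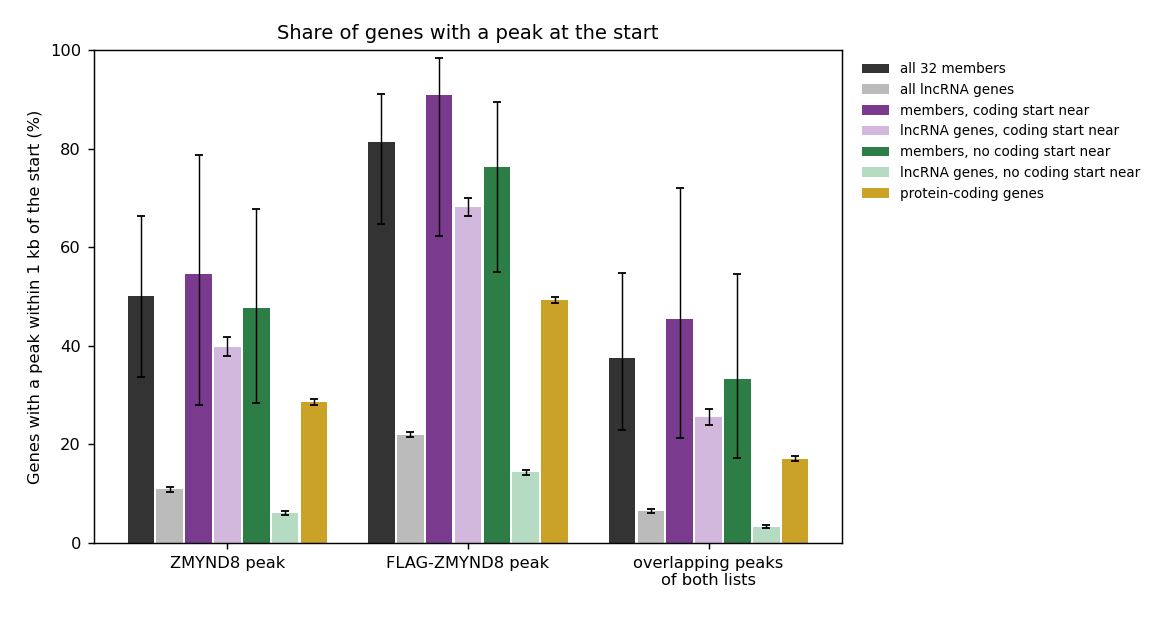
Percentage of genes with a peak midpoint within 1 kb of the gene start, for each list and for overlapping peaks of both, with 95% Wilson intervals as error bars that cover counting error only. The members with no protein-coding start near (dark green) reach 47.6% for ZMYND8 and 76.2% for FLAG-ZMYND8, and the lncRNA genes of the same kind (light green) 6.02% and 14.3%.

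The side of the start depended on which start was taken. Over all members, 11 of the 16 ZMYND8 peaks within 1 kb lay downstream of the gene start (68.8%, 44.4 to 85.8%) and 26 of the 39 FLAG-ZMYND8 peaks (66.7%, 51.0 to 79.4%). These intervals count each peak as independent. The 39 FLAG-ZMYND8 peaks lie at 26 members, several with more than 1, so their interval may be too narrow. For all lncRNA genes the downstream shares were 53.7% and 52.4%, and for protein-coding genes 69.3% and 62.5%. Without a protein-coding start within 1 kb, 9 of 10 ZMYND8 and 20 of 25 FLAG-ZMYND8 peaks of the members were downstream, against 59.3% and 55.6% for lncRNA genes of that kind. With such a start, 2 of 6 and 6 of 14 were. Upstream of a member is the neighbour's side where the pair is head to head, so the side has no single meaning there, and no test was made of these shares. Setting each member to its canonical start left 11 of 18 ZMYND8 peaks (61.1%) and 26 of 41 FLAG-ZMYND8 peaks (63.4%) downstream. Members with no protein-coding start within 1 kb of the gene start then had 10 of 12 (83.3%) and 19 of 26 (73.1%) downstream. The shares for lncRNA genes of that kind were 56.8% and 54.4%. Where the neighbour was also judged by canonical starts, the member counts were 9 of 12 (75%) and 18 of 27 (66.7%). With every annotated transcript start in use, each peak being set to the nearest, 11 of 23 ZMYND8 peaks (47.8%) and 30 of 54 FLAG-ZMYND8 peaks (55.6%) were downstream, so the majority was lost for ZMYND8. In the FLAG-ZMYND8 list cut to the widest peaks the count was 10 of 19 (52.6%).

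Within the genes, 10 of the 16 ZMYND8 peaks had their midpoint in an annotated exon, 5 lay upstream, and 1, at the short gene SNHG25, lay past the 3′ end. Of the FLAG-ZMYND8 peaks, 21 were exonic, 4 intronic, 13 upstream and 1 past the 3′ end of SNHG19. The gene start itself was covered by 5 ZMYND8 and 5 FLAG-ZMYND8 peaks. Few peaks lay on the snoRNAs. Both lists had a peak over SNORD60 in SNHG19, a gene of only 614 bp. FLAG-ZMYND8 peaks lay over SNORD104 in SNHG25, SNORD48 in SNHG32, and SCARNA17 and SCARNA18 in SNHG22, and further from the start over SNORA73B in SNHG3. The snoRNAs that GENCODE places on GRCh37 are fewer than those of RefSeq, with at least 1 in 22 of the members, so overlaps are counted low.

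In width, the peaks at the members resembled those at other genes. The ZMYND8 peaks within 1 kb had a median of 269.5 bp and ranged from 151 bp, the minimum of the list, to 1112 bp, and the median at all lncRNA genes was 246 bp. The FLAG-ZMYND8 peaks had a median of 260 bp, from the minimum of 167 bp to 1868 bp, against 255 bp. At the minimum width were 3 of the 16 ZMYND8 peaks (18.8%), against 30.6% at lncRNA genes, and 11 of the 39 FLAG-ZMYND8 peaks (28.2%), against 31.6%. Of the member peaks, 12 of 16 ZMYND8 peaks overlapped the other list (75%) and 13 of 39 FLAG-ZMYND8 peaks did (33.3%), where the shares at lncRNA genes were 61.4% and 25.6%. Peaks that overlapped the other list were the wider ones, at a median of 326 bp beside 212 bp in the ZMYND8 list and of 353 bp beside 218 bp in the FLAG-ZMYND8 list. Peaks at all lncRNA genes showed that too, at 394.5 beside 188 bp and 393 beside 218 bp.

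**Figure D3:**
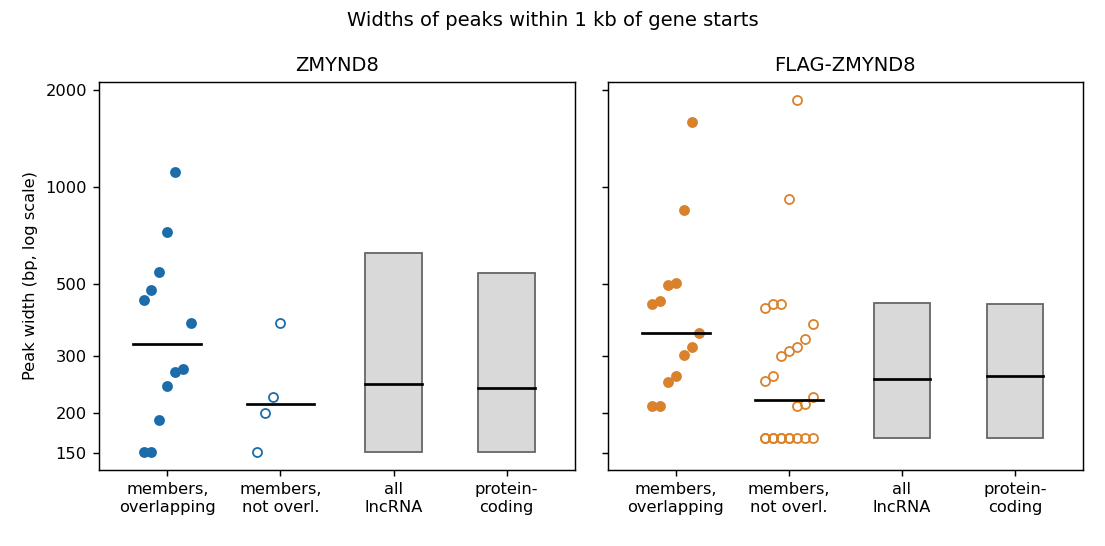
Widths in bp, on a log axis, of the ZMYND8 peaks (left) and FLAG-ZMYND8 peaks (right) within 1 kb of gene starts. Each point is a peak at a member, filled where it overlaps the other list; black lines are medians and grey boxes span the quartiles for all lncRNA and all protein-coding genes. The member medians, split by overlap, are 326 and 212 bp on the left and 353 and 218 bp on the right; the boxes are not split, and their lncRNA medians are 246 and 255 bp.

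The widest ZMYND8 peak within 1 kb of a member lay at SNHG16, a gene on chromosome 17 (chr17:74553809-74667067, plus strand, ENSG00000163597) that holds SNORD1A, SNORD1B and SNORD1C. That peak, chr17:74553258-74554369, was 1112 bp wide, was centred 4 bp downstream of the gene start and had width rank 640 among the ZMYND8 peaks. It overlapped 2 FLAG-ZMYND8 peaks of 498 and 209 bp, centred 325 bp upstream and 466 bp downstream. Together they flank the start, which neither covers. Further FLAG-ZMYND8 peaks of 212 and 265 bp lay 860 bp upstream and 2025 bp downstream.

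At SNHG4 (chr5:138609791-138620588, plus strand), host of SNORA74A and SNORA74D, the ZMYND8 peak of 727 bp was centred 56 bp upstream and covered the start. Its FLAG-ZMYND8 partner was 249 bp wide, lay entirely inside it and was centred 167 bp downstream. The next FLAG-ZMYND8 peak, at the minimum width, was 1182 bp downstream. Since the start of MATR3 is 350 bp upstream on the same strand, the peaks cannot be assigned to 1 of the genes.

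SNHG26 (chr7:22893745-22912571, plus strand) holds SNORD93 and has no coding start nearby. A ZMYND8 peak of 546 bp centred 100 bp downstream and a FLAG-ZMYND8 peak of 353 bp centred 2 bp downstream both covered its start and overlapped by 351 bp. A second FLAG-ZMYND8 peak, at the minimum width, lay 609 bp downstream.

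Peaks of SNHG9, SNHG5 and SNHG31 lay upstream of the host gene. SNHG9 (chr16:2014896-2015510, plus strand), host of SNORA78, had a ZMYND8 peak of 480 bp 577 bp upstream and a FLAG-ZMYND8 peak of 443 bp 295 bp upstream, which overlapped by 180 bp. With RPS2 beginning 54 bp upstream on the opposite strand, both lie on the RPS2 side of the pair. The widest FLAG-ZMYND8 peak near any member, 2101 bp, followed 2334 bp upstream.

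SNHG5 (chr6:86360209-86388650, minus strand) holds SNORD50A and SNORD50B. Its ZMYND8 peak of 448 bp and a FLAG-ZMYND8 peak of 503 bp had the same midpoint, 296 bp upstream, and the former lay wholly within the latter. A FLAG-ZMYND8 peak of 338 bp was on the other side, 398 bp downstream. At SNHG31 (chr2:215674905-215828299, plus strand), host of SNORA70I, the peaks were 380 bp wide for ZMYND8 and 434 bp for FLAG-ZMYND8, 671 and 710 bp upstream, with 368 bp in common. Their midpoints lie on the BARD1 side, whose start is 498 bp upstream on the other strand.

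DANCR (chr4:53578492-53589790, plus strand, ENSG00000226950) is named for its opposition to differentiation and holds SNORA26. Its nearest protein-coding start is 39261 bp away. A ZMYND8 peak of 272 bp lay 342 bp downstream of the gene start, which is 166 bp downstream of the canonical transcript start. A FLAG-ZMYND8 peak of 260 bp, 512 bp downstream, overlapped it by 96 bp, or 35.3% of the ZMYND8 peak, and another at the minimum width lay 230 bp upstream. The overlapping peaks of both lists were thus on the transcribed side and displaced from each other by 170 bp between midpoints.

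ZFAS1 (chr20:47894715-47916137, plus strand, ENSG00000177410), the antisense neighbour of ZNFX1, holds SNORD12, SNORD12B and SNORD12C. Its ZMYND8 peak of 380 bp covered the gene start, centred 95 bp downstream of it and 369 bp upstream of the canonical start. With ZNFX1 beginning 248 bp downstream of the gene start on the opposite strand, this peak cannot be assigned to 1 of the genes. No FLAG-ZMYND8 peak touched it. The FLAG-ZMYND8 peaks lay on either side, one of 299 bp 660 bp upstream and one of 211 bp 1239 bp downstream, and the nearer was separated from the ZMYND8 peak by a gap of 416 bp. In SNHG12, SNHG25 and SNHG28, the other members with peaks of both lists apart, the gaps for the peak within 1 kb were 423, 190 and 154 bp.

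GAS5 and SNHG1, the members with the most snoRNAs after SNHG14, had no ZMYND8 peak within 3 kb. GAS5 (chr1:173827697-173838020, minus strand, ENSG00000234741), whose transcript accumulates in growth-arrested cells, holds 11 snoRNAs by RefSeq. Its gene start was covered by a 259 bp peak of the FLAG-ZMYND8 list, with a midpoint 46 bp past that start. The same midpoint is 847 bp upstream of the canonical start, which the peak did not cover. A second peak, 212 bp wide, had its midpoint 1568 bp past the gene start and 675 bp past the canonical start. ZBTB37 begins on the opposite strand 800 bp inside GAS5, so neither peak can be assigned to 1 of these genes. In the ZMYND8 list the peak closest to the GAS5 gene start was 10959 bp upstream of it. SNHG1 (chr11:62619450-62623425, minus strand, ENSG00000255717) holds 9. FLAG-ZMYND8 peaks of 421 and 302 bp lay 355 and 1560 bp upstream of it, on the side of SLC3A2, and the ZMYND8 list came no closer than 4526 bp upstream.

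The remaining members with peaks of both lists were narrower in the ZMYND8 list. SNHG8, host of SNORA24, had 267 and 301 bp peaks 273 and 318 bp downstream that overlapped by 239 bp, and its nearest protein-coding start is 74300 bp away. The ZMYND8 peaks of SNHG32 (242 bp), SNHG15 (189 bp), SNHG10 (151 bp) and SNHG19 (151 bp) each lay entirely within a FLAG-ZMYND8 peak, of 1587, 848, 319 and 210 bp. SNHG10, host of SCARNA13, has the start of GLRX5 1386 bp downstream, outside the window, and 408 bp upstream of the canonical start by that gene's own canonical transcript.

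Among members with FLAG-ZMYND8 alone within 1 kb, the widest peak was at SNHG22, host of SCARNA17. It was 1868 bp wide, ranked 136 in its list and covered both this start and that of ACAA2 12 bp away. SNHG11, host of SNORA60 and SNORA71E, had a peak of 921 bp 731 bp downstream. SNHG17, host of SNORA71A to SNORA71D, had peaks of 434 and 167 bp, 343 and 836 bp downstream, and SNHG29, host of SNORD49A, SNORD49B and SNORD65, had 2 at the minimum width, 310 bp upstream and 371 bp downstream. SNHG3, host of SNORA73A and SNORA73B, had peaks of 434 bp 489 bp downstream and 167 bp 271 bp upstream.

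Some members without a ZMYND8 peak within 1 kb had one just outside it. SNHG20, host of SCARNA16, had the widest ZMYND8 peak at any member, 1242 bp, 1747 bp downstream, with 2 FLAG-ZMYND8 peaks of 247 and 390 bp overlapping it. SEC14L1 begins 2033 bp downstream of that start. SNHG30 had a 189 bp peak 1039 bp downstream. SNHG7 had a 192 bp peak 1770 bp downstream inside a FLAG-ZMYND8 peak of 1261 bp. In SNHG6, host of SNORD87, a ZMYND8 peak of 795 bp lay 1021 bp downstream of the gene 5′ end but covered the canonical transcript start, 214 bp downstream of which it was centred, and it enclosed a FLAG-ZMYND8 peak of 260 bp. Placed by canonical starts, ZMYND8 peaks within 1 kb were therefore found in 18 members and FLAG-ZMYND8 peaks in 27, with 10.8% and 21.8% of lncRNA genes as background, and both lists had peaks in 18, with 8.27%.

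Neither list had a peak within 3 kb of EPB41L4A-AS1, SNHG14, SNHG18, SNHG21 and SNHG27. EPB41L4A-AS1 (chr5:111496223-111500515, plus strand) holds SNORA13. The nearest ZMYND8 and FLAG-ZMYND8 peaks were 210255 and 177899 bp from its start. SNHG14 (chr15:25223730-25665483, plus strand) is the imprinted host of the SNORD115 and SNORD116 clusters, with 84 snoRNAs by RefSeq. The nearest ZMYND8 peak was 459896 bp downstream of its start, which is past the 3′ end of this gene of 441754 bp. Distances from the start to that list were 47610 bp for SNHG18 (chr5:9546282-9550837, plus strand) and 77994 bp for SNHG21 (chr15:83419316-83425958, plus strand). For SNHG27 (chr4:132648742-132712647, plus strand) the distance was 2634149 bp. Of the 5, SNHG18 alone has a protein-coding start within 1 kb.

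Further inside the genes, FLAG-ZMYND8 peaks were found more widely than ZMYND8 peaks. Of the 29 members longer than 3 kb, 2 had a ZMYND8 peak inside the gene and over 3 kb from the start (6.90%), where 9.1% of the lncRNA genes of that length had one. These were 4 peaks in SNHG16 and 1 in SNHG5. FLAG-ZMYND8 peaks were found there in 14 members (48.3%), against 21%, and numbered 47, with 21 in SNHG16, 6 in SNHG29 and 4 in GAS5. The median length was 10798 bp in these members and 16294 bp in the lncRNA genes. SNHG16 spans 113259 bp, and the longer members SNHG14 and SNHG31, of 441754 and 153395 bp, had no peak of either list inside. By canonical transcripts, the protein-coding gene ENSG00000284526 begins inside SNHG16, 11896 bp downstream of its start. Peaks inside SNHG16 were not assigned to 1 of these genes.

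Base composition at the starts was read from the sequence. In the 300 bp window from 250 bp upstream to 50 bp downstream of the canonical start, the members had a median of 22 CpG sites, from 2 in SNHG11 to 43 in SNHG5 and SNHG7, and a median GC content of 61.8%. All lncRNA genes had medians of 5 sites and 49% and protein-coding genes 23 sites and 63.7%. The host gene medians were thus nearer to those of coding than of other lncRNA starts. The 18 members with peaks of both lists within 1 kb of the canonical start had a median of 23 CpG sites, the 9 with FLAG-ZMYND8 alone 19, and the 5 with neither 23. In the last group SNHG18 had 42 and SNHG27 33, while EPB41L4A-AS1 and SNHG14 had 7 each.

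Set against lncRNA genes with as many CpG sites, the members' shares stood above a higher background. At 20 or more sites, 14 of 21 members (66.7%) had a ZMYND8 peak, against 39.7% of 3248 lncRNA genes, and 18 (85.7%) a FLAG-ZMYND8 peak, against 65.1%. At 10 to 19 sites the counts were 4 and 7 of 7 members, against 16.8% and 36.2% of 2344 lncRNA genes. The 4 members with fewer than 10 sites had no ZMYND8 peak and 2 had a FLAG-ZMYND8 peak. In lncRNA genes the ZMYND8 shares were 1.4% at 0 to 4 and 4.9% at 5 to 9 sites, and the FLAG-ZMYND8 shares 5.65% and 14.9%. The part of base composition in the member shares was not tested.

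**Figure D4:**
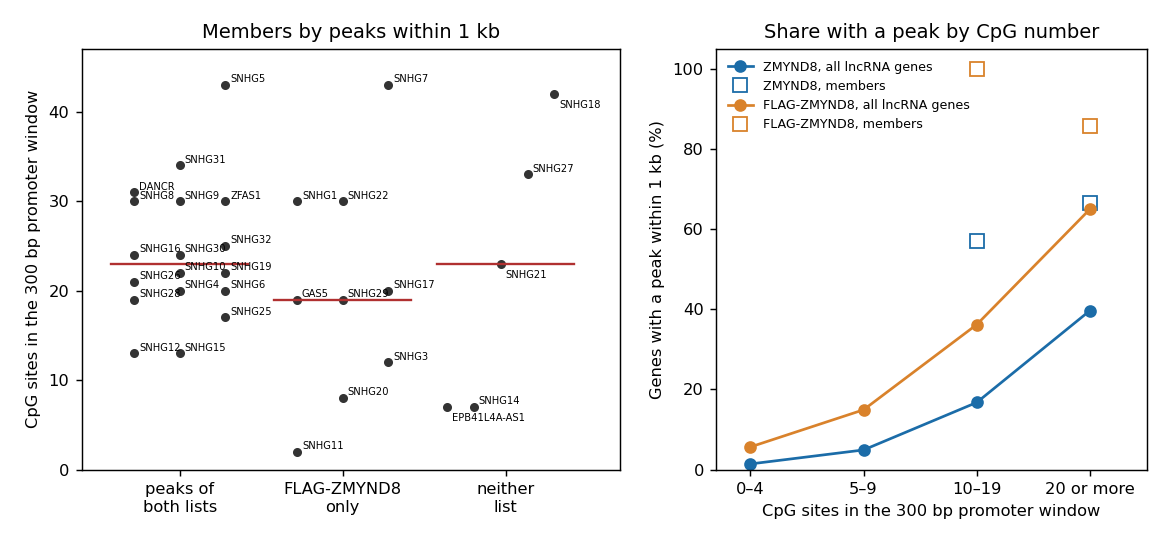
Left, CpG sites in the 300 bp promoter window of each member, grouped by the lists with a peak within 1 kb of the canonical start, with group medians of 23, 19 and 23 as red lines. Right, percentage of genes with a ZMYND8 (blue) or FLAG-ZMYND8 (orange) peak by number of CpG sites, as lines for all lncRNA genes and as open squares for the members in the 2 upper classes, which hold 7 and 21 members; at 20 or more sites the squares are at 66.7 and 85.7% and the lines at 39.7 and 65.1%.

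Motifs were also searched on both strands of that window. The SP motif CCCGCCC was present in 19 members (59.4%), against 14.3% of lncRNA and 47.3% of protein-coding genes. The ETS core CCGGAA was present in 7 (21.9%), against 9.64% of lncRNA and 22.8% of protein-coding genes. The E-box CACGTG and the NRF1 motif GCATGCG were present in 6 each (18.8%). Their shares were 5.49% and 2.33% in lncRNA genes and 8.76% and 5.10% in protein-coding genes. The YY1 motif GATGGCG and the CRE motif TGACGTC were found in 2 members each (6.25%). They were found in 2.42% and 2.01% of lncRNA and 5.86% and 4.59% of protein-coding genes. TATAAA was found in 4 members (12.5%), with 15.9% of lncRNA and 9.65% of protein-coding genes. Members with a ZMYND8 peak held the SP motif in 13 of 18 cases and those without in 6 of 14, and among all lncRNA genes it was present in 43.6% of those with a ZMYND8 peak and 10.7% of those without. The other motifs went both ways in these members. With and without a ZMYND8 peak, the counts were 4 and 2 for the E-box, 5 and 2 for ETS, and 2 and 0 for YY1. They were 2 and 4 for NRF1, 0 and 2 for CRE, and 2 and 2 for TATAAA. No motif was tested.

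Peaks were present at hosts of each kind of snoRNA. Of the 13 members that hold box C/D snoRNAs alone, 7 had a ZMYND8 and 10 a FLAG-ZMYND8 peak within 1 kb, and of the 11 with box H/ACA snoRNAs alone, 6 and 10. Among the 4 scaRNA hosts the counts were 1 and 3. Over all lncRNA genes the shares were 10.8% and 22%, and no class was tested against another. GAS5 and SNHG12, which hold both kinds, both had a FLAG-ZMYND8 peak, and SNHG12 a ZMYND8 peak as well. The median number of snoRNAs was 1 in the members with peaks of both lists at the canonical start, 2 in those with FLAG-ZMYND8 alone and 1 in those with neither.

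Other genes that host snoRNAs were compared by counts. RefSeq places a snoRNA or scaRNA in 45 other lncRNA genes, of which 9 (20%) had a ZMYND8 and 18 (40%) a FLAG-ZMYND8 peak within 1 kb. It places one in 544 protein-coding genes, with counts of 234 (43.0%) and 353 (64.9%). The members' shares of 50 and 81.25% were the higher ones in both lists, but the members' intervals, 33.6 to 66.4% and 64.7 to 91.1%, include the shares of the protein-coding hosts in both lists.

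The genes whose proteins bind and process snoRNAs were read in the same way. Of 19 such genes, 8 had a ZMYND8 peak within 1 kb, or 42.1% (23.1 to 63.7%), an interval that includes the 28.5% of all protein-coding genes. A FLAG-ZMYND8 peak was present in 14, or 73.7% (51.2 to 88.2%), beside 49.3%. No test was made. FBL, the fibrillarin gene, had ZMYND8 and FLAG-ZMYND8 peaks of 388 and 396 bp, 116 and 104 bp downstream of its start. The other box C/D core genes NOP56, NOP58 and SNU13 each had a FLAG-ZMYND8 peak, and NOP58 also a ZMYND8 peak of 151 bp. Among the box H/ACA core genes, NHP2 had both, with peaks of 189 and 393 bp, DKC1, which encodes dyskerin, had a ZMYND8 peak of 151 bp alone, and NOP10 and GAR1 had none. In the 11 assembly genes the counts were 4 and 9, with both lists at RUVBL1, RUVBL2 and COIL, a ZMYND8 peak alone at NAF1, and neither at SHQ1.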

How the data were processed

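The series comprises ChIP-seq of ZMYND8, FLAG-ZMYND8, H3K14ac and H3K27ac in HEK293 cells with input DNA. The histone mark and input samples were not analysed here. Per the labels and methods, alignment to hg19 was done by the authors with BWA-MEM and profiles were made with HOMER; the peak-calling settings, and how the replicates were combined, are not given in the sources used here. The deposited score column holds 1 in every row, so peaks were ranked by width. The lists give no counts, so depth is unknown. Positions are hg19 and were read 1-based from the 6-column lists.

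Peak midpoints were set against gene starts of GENCODE release 44 on GRCh37, and sequences were read from GRCh37, of which 1 start is not reported here. snoRNA content came from RefSeq nesting on GRCh38.p14 in place of the planned same-strand GENCODE snoRNAs, which are incomplete on GRCh37, and used no strand. Shares are given with 95% Wilson intervals and no test. The members and lists were chosen with earlier results of these data known. Members described in full were GAS5, DANCR, ZFAS1, EPB41L4A-AS1, SNHG1 and the 8 with the widest ZMYND8 peak within 1 kb; those with no peak within 3 kb were given by position. Placement and overlap functions were tested on simulated lists. Tools were Python 3.11.15, pysam 0.24.0, pandas 2.3.3, numpy 2.4.6, matplotlib 3.10.9 and scipy 1.17.1.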

Additional observations from a re-analysis of the deposited data

How the results depend on the processing

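Of 59 recomputed shares, 54 stayed within the 95% interval of the reported value and 5 left it. One setting joined starts within 1 kb into 1 locus. It could change nothing, since the closest member starts are 10934 bp apart, and its shares are counted among the 54. Keeping only the widest FLAG-ZMYND8 peaks, equal in number to the ZMYND8 peaks, lowered the share of members with a FLAG-ZMYND8 peak to 53.125% within 1 kb and 62.5% within 3 kb, by its construction. Asking that overlapping peaks cover 50% of each other left 15.625% of members (5 of 32). Without members that have a protein-coding start within 1 kb, the downstream share rose to 90% for ZMYND8 (9 of 10) and 80% for FLAG-ZMYND8 (20 of 25). The cause was not tested. The same restriction by canonical starts gave 75% (9 of 12) and 66.7% (18 of 27), within the intervals of the reported shares. With any annotated transcript start, 47.8% of ZMYND8 and 55.6% of FLAG-ZMYND8 peaks were downstream, within the intervals of the reported shares but without a majority for ZMYND8. The canonical start was added after seeing the data. It gave 56.25% for ZMYND8 and 84.4% for FLAG-ZMYND8 within 1 kb. Of 352 counts of peaks at single members, 288 stayed equal or within 1.5 times and 64 moved. No paired analysis was possible because each target has a single list without replicate columns, which also meant that leaving out a replicate could not be done. Depth and peak strength cannot be read from the lists, and an absent peak may lie below the unknown calling threshold.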

Other observations

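Nonsense-mediated decay degrades the spliced transcripts of several host genes. Of 10 genes of that pathway, 4 had a ZMYND8 peak within 1 kb of the start, or 40% (16.8 to 68.7%). A FLAG-ZMYND8 peak was present in 8, or 80% (49.0 to 94.3%). Both intervals include the shares of all protein-coding genes, 28.5% and 49.3%. Both lists had peaks at UPF1, the central helicase, with widths of 188 and 267 bp, and at UPF3A, SMG6 and SMG9. The FLAG-ZMYND8 peak at SMG9 was 1617 bp wide. UPF2 and UPF3B had neither.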
